A study of Homo sapiens with 4 samples.

Results

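The regions described here were the strongest B bins of growing IMR90 fibroblasts, 2564 bins of about 200 kb out of 12862 kept bins on the 22 autosomes. Chromosomes separate into an active A compartment and an inactive B compartment, and the members were the 20% of bins on each autosome that lay furthest on the B side of the Grow map. Bins were retained if every one of the 4 maps listed 50% or more of their possible pairs within the chromosome. The score came from a principal component analysis of the Pearson correlations between the columns of the Grow map (first component), signed such that a bin rich in protein-coding genes scored high. The members were thus chosen by the contact values of the Grow map, and what that map shows of them is a description. The autosomes held between 33 and 230 members each (median 114). In SD units of the score on each chromosome, the last bin taken lay between -1.38 and -1.18 (median -1.26), and the first bin left out between -1.37 and -1.18 (median -1.25). The 2564 bins with the highest scores are called the strongest A bins below, and the remaining 7734 bins the middle bins.

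Hi-C, which ligates and sequences pieces of chromatin that lie close together in the nucleus, was done in IMR90, a human cell line of normal lung fibroblasts that is widely used. The cells of the series carried an inducible oncogene (pLNCX2 ER:HRAS G12V), and 6 days in 100 nM 4OHT brought about oncogene-induced senescence (OIS). Grow cells were not given 4OHT, and in Grow-shA1 and OIS-shA1 a hairpin in the vector pMSCV miR shHMGA1 lowered HMGA1, an architectural protein whose AT hooks bind DNA rich in A and T. Of the 4 samples in the series, 2 were pooled in the Grow-shA1 map and 2 in the OIS-shA1 map, while the Grow and OIS maps were taken over from older work of this laboratory and match none of the samples. An effect of shA1 and a difference between the data sets cannot be told apart in Grow-shA1 minus Grow or in OIS-shA1 minus OIS. Each map is an average over all cells of a culture, so that contacts in fewer cells and weaker contacts in all cells cannot be told apart. Each condition had 1 map, without replicate maps, so no difference was tested. The number of autosomes that share a direction is given instead, which describes how even a difference was along the genome and is not a replicate error.

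B chromatin is rich in A and T, poor in genes and late to replicate, and much of it lies at the nuclear lamina or around nucleoli. B regions of the same chromosome touch each other across long distances, over the A regions between them. In senescent fibroblasts with oncogenic RAS, heterochromatin can leave the lamina and gather into dense foci that contain HMGA proteins.

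To show what the DNA of the members looks like, a stretch of 200 bases is given for a run of 23 adjacent members on chromosome 10 and, for contrast, for each of the 2 longest runs of the strongest A bins. Each stretch is the one whose GC content lies nearest to that of its run, read from the plus strand of GRCh37 (hg19), and capitals mark every stretch of 6 or more bases made only of A and T. The member run spans chr10:106201364-110801087 (GC content 38.4%, 16.6% of bases in such A/T stretches), and its window at chr10:108505564-108505763 lies in an intron of SORCS1. The strongest A run on chromosome 7 spans chr7:77394866-82192941 (24 bins, GC content 36.3%, 20.01% in A/T stretches), and its window at chr7:79792466-79792665 lies in an intron of GNAI1. The strongest A run on chromosome 2 spans chr2:200798886-204603538 (19 bins, GC content 40.8%, 15.9% in A/T stretches), and its window at chr2:202707286-202707485 lies in an intron of CDK15.
Member run, chromosome 10: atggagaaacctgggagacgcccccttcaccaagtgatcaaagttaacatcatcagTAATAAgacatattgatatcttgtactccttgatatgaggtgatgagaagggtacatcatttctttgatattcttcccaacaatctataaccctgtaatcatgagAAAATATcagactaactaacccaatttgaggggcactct
Strongest A run, chromosome 7: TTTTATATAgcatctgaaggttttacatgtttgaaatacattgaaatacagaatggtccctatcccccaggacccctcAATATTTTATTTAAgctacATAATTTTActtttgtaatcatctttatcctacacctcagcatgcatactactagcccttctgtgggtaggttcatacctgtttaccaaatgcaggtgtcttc
Strongest A run, chromosome 2: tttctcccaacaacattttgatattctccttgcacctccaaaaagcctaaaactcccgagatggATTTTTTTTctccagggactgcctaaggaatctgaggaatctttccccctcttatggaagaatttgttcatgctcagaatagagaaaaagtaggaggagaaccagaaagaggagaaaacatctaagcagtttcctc
The window of the member run held 13 bases in A/T stretches, and those of the strongest A runs 32 and 9. The windows were matched to their runs on GC content alone. Their shares in A/T stretches, 6.5%, 16% and 4.5%, were all below those of their runs, and they do not stand for the runs in this feature. The longest member run, of 24 bins on chromosome 3, had a GC content of 34.6% and 22.3% of its bases in A/T stretches. By these run values the strongest A run on chromosome 7 lay between the member runs in its share of A and T. It held 9 protein-coding gene starts and the strongest A run on chromosome 2 held 39, where the member runs of chromosomes 10 and 3 held 2 and 1.

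Over all bins, the members had a GC content of 37.7% ± 3.05 (SD over 2564 bins), against 41.2% ± 4.59 in the middle bins and 41.9% ± 4.18 in the strongest A bins. On each of the 22 autosomes the mean of the members was below that of all kept bins, with means of the members from 35.1% to 45.8%. A/T stretches of 6 or more bases made up 18.1% of the members, 15.0% of the middle bins and 14.5% of the strongest A bins. CpG dinucleotides numbered 6.68 per kb in members, 10.0 in middle bins and 10.9 in the strongest A bins. The members formed 706 runs of adjacent bins, of which 230 were single bins, and the 172 runs of 5 or more bins held 59.3% of all members. They were seldom near chromosome ends. Only 2.57% of the members (66 bins) lay within 5 Mb of an end, against 7.42% of the middle bins and 4.76% of the strongest A bins, and their median distance from an end was 49.8 Mb. In all, they covered 512 Mb.

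The members held few genes, which the choice of sign partly built in. No protein-coding gene started in 1994 of the 2564 members (77.8%), where the share was 47.3% of all kept bins. In total 1114 protein-coding genes started in members, or 2.18 per Mb, against 7.22 per Mb in middle bins and 9.20 per Mb in the strongest A bins. Gene bodies covered 29.0% of the members and 60.02% of the strongest A bins. The genes of the members were of ordinary median length (26.4 kb, against 30.5 kb for all genes in kept bins), yet very long genes were common among them. A length of 500 kb or more was reached by 86 of the 1114 genes (7.72%), compared with 1.81% of all genes and 0.827% of those in the strongest A bins.

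These 1114 genes were 6.57% of the 16950 protein-coding genes that started in kept bins, and that share is the background for the families below. For counts in the strongest A bins the background is 27.8% (4718 genes). Receptors for smell were the most numerous. Of 394 olfactory receptor genes, 165 (41.9%) started in members and 3 in the strongest A bins, and they sat together in 38 member bins. Chromosome 11 held 72 of these genes out of its 177, chromosome 19 held 17 of 19, chromosome 12 held 16 of 18 and chromosome 17 held 13 of 14, while none of the 19 on chromosome 6 was in a member. Several families of neuronal adhesion genes also started in members. Contactins and their relatives, which act at axons and synapses, had 6 of 12 genes in members (CNTNAP5, CNTN6, CNTN4, CNTNAP2, CNTN1 and CNTNAP4). Cadherins, calcium-dependent adhesion proteins, had 7 of 22 (CDH18, CDH12, CDH10, CDH8, CDH20, CDH7 and CDH19), and a further 5 were in the strongest A bins. Clustered protocadherins had 25 of 53, all in 2 neighbouring bins of chromosome 5, and protocadherins outside the clusters had 4 of 10 (PCDH10, PCDH15, PCDH17 and PCDH20). LRRTM genes, which code for synaptic adhesion proteins, had 2 of 4 (LRRTM3 and LRRTM4).

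Among receptors and channels, 5 of 22 glutamate receptor genes, GRM8 among them, and 10 of 92 potassium channel genes started in members, while 14 of the channel genes started in the strongest A bins. Bitter taste receptors had 2 of 24 (TAS2R16 and TAS2R38). Among enzymes of detoxification and lipid metabolism, 14 of 55 cytochrome P450 genes and 4 of 22 UDP-glucuronosyltransferase genes (UGT2B10, UGT2B4, UGT2A2 and UGT2A1) were in members. Defensins, antimicrobial peptides, had 4 of 37 (DEFB114, DEFB113, DEFB110 and DEFB112). Zinc finger genes with ZNF symbols had 65 of 484 (13.4%), and 50 of the 65 lay on chromosome 19, which has 249 such genes in kept bins. At the other end, 0 of 35 proteasome subunit genes and 0 of 22 matrix metalloproteinase genes started in a member. Of 94 keratin-associated protein genes, 13 interferon alpha genes and 13 SERPINB genes, 0 started in a member and 0 in a strongest A bin. These 3 families thus lay in middle bins. The ribosomal protein genes had 2 of 68 (RPL10L and RPL38) and the collagens 1 of 37 (COL6A5). The strongest A bins held 31 of the ribosomal (45.6%), 17 of the proteasome (48.6%), 13 of the collagen (35.1%) and 10 of the metalloproteinase genes (45.5%). Of all protein-coding genes, 27.8% started there. Neighbouring genes of a family share a bin, so that these counts are counts of few places.

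**Figure D1:**
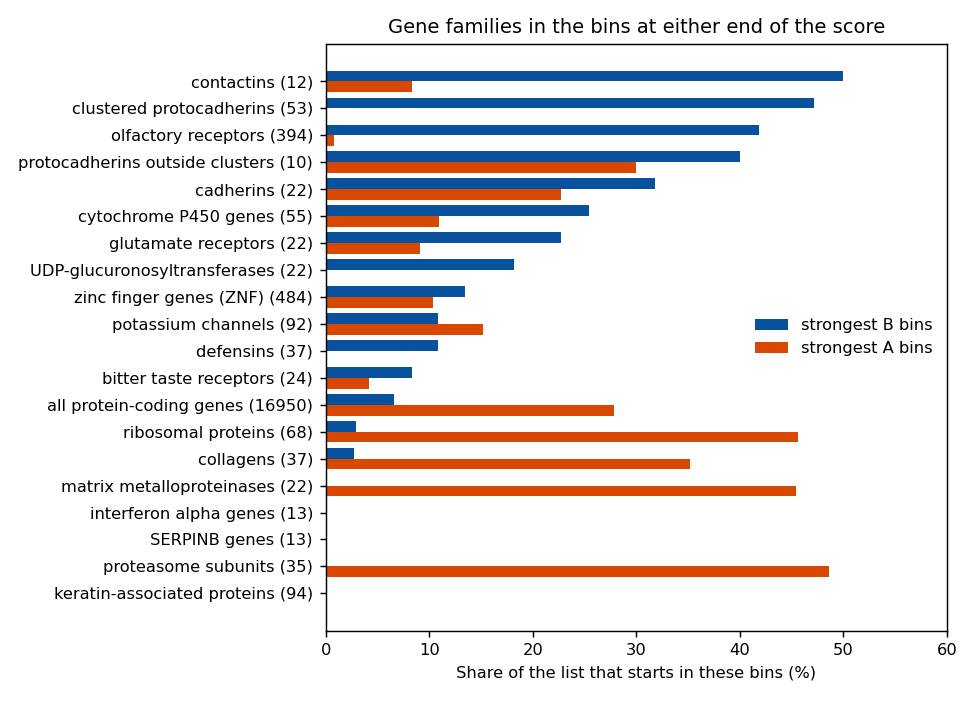
Bars give the share of each gene family (in percent, number of genes in kept bins in brackets) that starts in the strongest B bins (blue) and in the strongest A bins (orange). Olfactory receptors, contactins and clustered protocadherins come to 165 of 394, 6 of 12 and 25 of 53 in the strongest B bins, against 6.57% of all protein-coding genes. Ribosomal, proteasome, collagen and metalloproteinase genes have longer orange than blue bars. Their orange bars stand at 45.6%, 48.6%, 35.1% and 45.5%, against 27.8% of all protein-coding genes.

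The deposited values score a pair of bins against the average contact of pairs equally far apart, so that 0 is the contact usual for that distance. They behave like logarithms, but neither the base nor the prior is stated, so values are given in score units with no fold change. Pairs over 2 Mb apart are called distal. Members met other members of their chromosome above the usual level in every map. Over 163131 distal pairs listed in all 4 maps, the mean score was 1.26 in Grow, 1.07 in Grow-shA1, 1.45 in OIS and 1.22 in OIS-shA1. Its lowest and highest values on an autosome were 0.845 and 2.23 in Grow, 0.764 and 2.03 in Grow-shA1, 0.900 and 2.37 in OIS, and 0.757 and 2.28 in OIS-shA1, so the mean was above 0 on all 22 in each map. Pairs of the strongest A bins were nearer to 0, at 0.455, 0.436, 0.446 and 0.434 in the same order of maps. Pairs of a member with a strongest A bin stood far below 0, at -0.956, -1.02, -1.27 and -1.20. Members with middle bins came to 0.315, 0.264, 0.160 and 0.126. All kept distal pairs listed in all 4 maps were not at 0 either, with means of 0.180, 0.123, 0.121 and 0.0817.

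The number of listed pairs differed between the maps, with 4631800 pairs listed in Grow, 4358563 in Grow-shA1, 4123451 in OIS and 4032189 in OIS-shA1. Listed pairs are not read depth, and the paper reports more reads for Grow-shA1 than for OIS-shA1. Whether depth changed the size of the scores was not tested. For the members' mutual contacts the listing was nearly complete. Each map listed between 98.4% and 99.6% of their distal pairs, and 96.1% were listed in all 4. Pairs between members and the strongest A bins were listed in all 4 maps in 30.3% of cases only, and means over them leave out the unlisted pairs. The files give no read count for a pair, so its counting error is unknown.

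With RAS and normal HMGA1, the mutual contacts of the members were 0.190 higher (OIS minus Grow), and with shA1 they were 0.155 higher (OIS-shA1 minus Grow-shA1). All kept distal pairs moved the other way, by -0.0593 and -0.0413, and pairs of the strongest A bins by -0.00912 and -0.00208. The difference was not even along the genome. Without shA1 it was above 0 on 12 autosomes and below 0 on 10, from 0.457 on chromosome 4 to -0.369 on chromosome 17. With shA1 it was above 0 on 11 and below 0 on 11, from 0.589 on chromosome 13 to -0.464 on chromosome 17. Chromosomes 2, 3, 4, 5, 6, 8, 11, 12 and 13 were higher by at least 0.15 with RAS in both comparisons, and chromosomes 16, 17 and 22 were lower by at least 0.15 in both. Chromosome 4 held 179 members, whose mutual contact was 1.40 in Grow, 1.05 in Grow-shA1, 1.85 in OIS and 1.51 in OIS-shA1. Chromosome 17 held 76, at 1.27, 1.22, 0.903 and 0.757. Since the long chromosomes have most pairs, the mean of the 22 chromosome means was smaller, 0.0576 without and 0.0460 with shA1. The difference without shA1 also hung on the scale, and it turned to -0.0267 when each map was divided by its own SD at the same distance, where the difference with shA1 was 0.120.

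Both shA1 maps had lower mutual contact of the members than their controls, with a difference of -0.198 for Grow-shA1 minus Grow and -0.232 for OIS-shA1 minus OIS. The direction was the same on 21 of 22 autosomes in each. The exceptions were chromosome 20 in growing cells (0.0186) and chromosome 21 in senescent cells (0.330). The levels of chromosome 21 were 2.23 in Grow, 2.03 in Grow-shA1, 1.93 in OIS and 2.26 in OIS-shA1, over 398 pairs of 35 members. All kept distal pairs differed by -0.0572 and -0.0392 in these comparisons, and pairs of the strongest A bins by -0.0195 and -0.0124. The Grow map chose the members, which can lower Grow-shA1 minus Grow by the choice itself. With members taken from the Grow-shA1 map this difference was -0.140, and with members from the OIS-shA1 map -0.214. The RAS difference with shA1 minus that without it was -0.0342, and any offset that both shA1 maps share drops out of this value. It was below 0 on 19 autosomes, and above 0 on chromosomes 13 (0.340), 14 (0.0490) and 21 (0.528). Under the scaling by SD it was 0.147. With members from the Grow-shA1 map it was -0.0206, and with members from the OIS-shA1 map -0.0213.

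**Figure D2:**
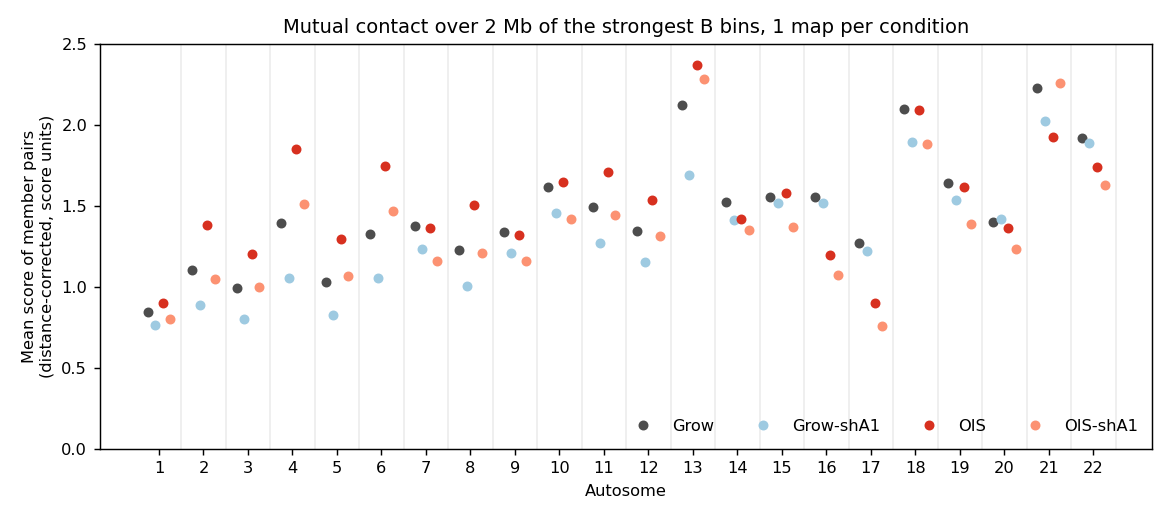
Each point is the mean score (score units, 0 = usual for the distance) of distal pairs of strongest B bins on an autosome in 1 map. All points lie above 0, the OIS point is the highest of the 4 on chromosomes 2 to 6 and lies below Grow on chromosomes 16 and 17, and both shA1 points lie below their control on most chromosomes.

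The differences depended on how far apart the members were. From 50 to 100 Mb the mutual contact was 0.824 in Grow, 0.545 in Grow-shA1, 1.20 in OIS and 0.840 in OIS-shA1, a RAS difference of 0.378 without and 0.295 with shA1. From 10 to 20 Mb the levels were 1.64, 1.51, 1.71 and 1.54, and the RAS differences 0.0766 and 0.0233. From 2 to 5 Mb the RAS difference was 0.00227 without shA1 and 0.246 with it. The RAS differences of all kept pairs also shifted with distance. Without and with shA1 they were -0.155 and -0.101 at 2 Mb or less, and -0.165 and -0.110 from 2 to 5 Mb. From 10 to 20 Mb they were -0.115 and -0.0978, and from 50 to 100 Mb 0.0187 and 0.0254. At 2 Mb or less the members' mutual contact was 0.916 in Grow, 0.853 in Grow-shA1, 0.558 in OIS and 0.812 in OIS-shA1, so OIS was lowest at this range although it was highest over 50 Mb. OIS-shA1 minus OIS accordingly changed sign with distance, from 0.254 at 2 Mb or less and 0.116 from 2 to 5 Mb to -0.362 from 50 to 100 Mb. Grow-shA1 minus Grow was below 0 in each range, between -0.279 and -0.0623. Contacts between members and the strongest A bins were lower with RAS at short range, with the RAS difference at -0.794 without and -0.572 with shA1 from 2 to 5 Mb, and -0.0919 and 0.00465 from 20 to 50 Mb, and -0.113 and -0.0346 from 50 to 100 Mb. Beyond 100 Mb only 668 such pairs on 11 autosomes were listed in all 4 maps. Across the centromere the members' distal contact was 0.671, 0.492, 0.887 and 0.608 in Grow, Grow-shA1, OIS and OIS-shA1, and on the same arm 1.45, 1.25, 1.63 and 1.42.

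**Figure D3:**
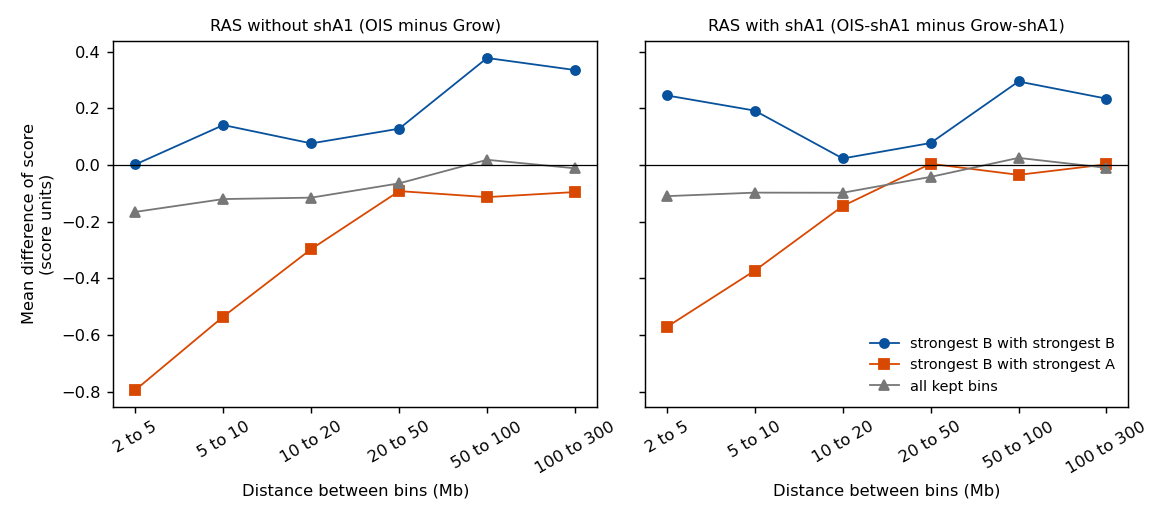
Points give the mean difference of score (score units) by distance between bins (Mb), without shA1 on the left and with shA1 on the right, for pairs of strongest B bins (blue), strongest B with strongest A bins (orange) and all kept bins (grey). The blue points lie at or above 0 and reach 0.378 and 0.295 from 50 to 100 Mb, and the orange points are lowest from 2 to 5 Mb.

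For each member, the mean score of its distal pairs with the other members of its chromosome was taken, which gave a value for all 2564 members. It was above 0 in all 2564 in Grow and Grow-shA1, in 2563 in OIS and in 2560 in OIS-shA1. OIS was above Grow in 1803 members (70.3%), where 41.2% of the 8736 kept bins with a value for their contact with members were higher. OIS-shA1 was above Grow-shA1 in 1686 members (65.8%), where 41.2% of the 8736 bins were higher. Grow-shA1 was above Grow in 245 members (9.56%), against 26.9% of all bins, and OIS-shA1 was above OIS in 303 members (11.8%), against 35.9%. The members are part of the 8736 bins, and the counts against Grow contain the map that chose them.

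These differences went with base composition. The members were put into 5 equal groups by GC content, the first at 32.7% to 35.1% and the last at 39.9% to 54.1%. From the AT-richest to the GC-richest group, OIS minus Grow was 0.298, 0.256, 0.178, 0.0685 and -0.125, and OIS-shA1 minus Grow-shA1 was 0.367, 0.254, 0.136, 0.00283 and -0.209. The RAS difference thus fell step by step with GC content, and changed sign in the GC-richest group, both without and with shA1. With each map scaled by its SD at equal distance, OIS minus Grow in the AT-richest group was 0.0617, and in the GC-richest -0.367. Grow-shA1 minus Grow was -0.282 in the AT-richest and -0.0468 in the GC-richest group. OIS-shA1 minus OIS showed no such order, with -0.213, -0.253, -0.245, -0.204 and -0.130. Pearson's r with GC content over the 2564 members was -0.549 for the RAS difference without shA1 and -0.649 with it, 0.596 for the shA1 difference in growing and 0.222 in senescent cells. Over all 8736 kept bins with a value for their contact with members, r was -0.552, -0.583, 0.431 and 0.306 in the same order, so the relation was not particular to the members. Adjacent bins share both contacts and composition, so the members are not independent points, and all members of a chromosome share its library and its level. Within chromosomes, members below the median GC content of their chromosome's members had the higher RAS difference on 18 of 22 autosomes without shA1 and on 18 of 22 with it. Whether the GC content of the sequenced fragments had a part in these relations was not tested.

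**Figure D4:**
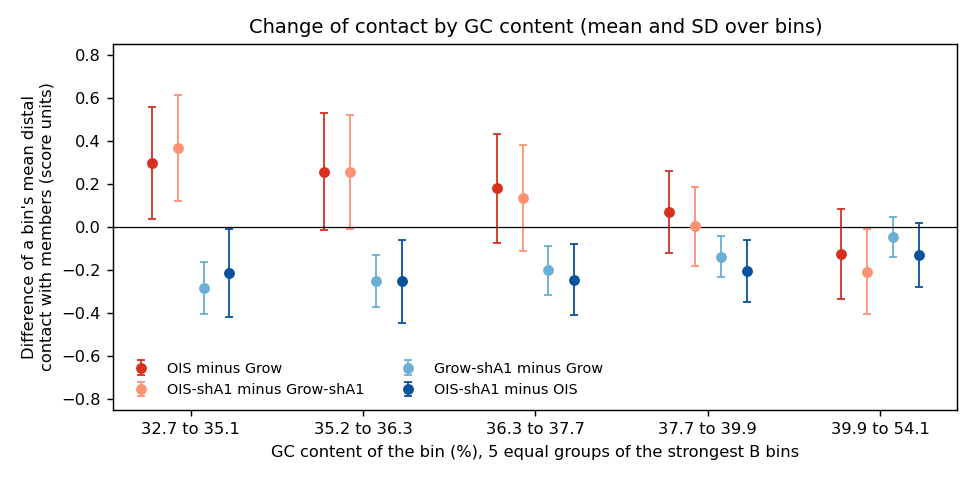
Points give the mean and bars the SD over bins of the difference in a member's mean distal contact with other members (score units), for 5 equal groups of members by GC content (percent). Both RAS differences (red and light red) fall from 0.298 and 0.367 in the AT-richest group to -0.125 and -0.209 in the GC-richest, and the shA1 differences (blue) are below 0 in each group.

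The 5 longest runs of adjacent members showed this range. The run at chr3:82001606-86794454 (24 bins) contains the start of CADM2, a synaptic adhesion gene, and nothing else that codes for protein. Its bins had a mean contact with other members of 1.10 ± 0.0889 in Grow (SD over bins), 0.830 ± 0.0934 in Grow-shA1, 1.34 ± 0.0962 in OIS and 1.15 ± 0.111 in OIS-shA1, and all 24 were higher with RAS in both comparisons. The run at chr10:106201364-110801087 (23 bins) holds SORCS3 and SORCS1, which code for sorting receptors of neurons, and had 1.75, 1.59, 1.88 and 1.55 in the same order. The run at chr10:65606081-69396979 (19 bins) with LRRTM3 had 1.78, 1.60, 1.76 and 1.59, which places both shA1 maps below both maps without it. The run at chr2:114799174-118601321 (19 bins) holds DPP10, which codes for a partner protein of potassium channels, and DDX18, an RNA helicase gene, and had 1.20, 0.985, 1.40 and 1.05. The run at chr17:49402272-53399469 (20 bins) stood apart from the other 4. It holds CA10, KIF2B, TOM1L1, COX11, STXBP4 and HLF, and its contact was 1.36 ± 0.247 in Grow, 1.46 ± 0.214 in Grow-shA1, 0.752 ± 0.406 in OIS and 0.781 ± 0.370 in OIS-shA1. All of its 20 bins were lower with RAS in both comparisons. In OIS 6 of the 20 were still among the lowest 20% of scores, where the other 4 runs kept between 13 and 24 of their bins. The fall was shared by its chromosome. The run had RAS differences of -0.605 without and -0.677 with shA1. Pairs of any members of chromosome 17 had -0.369 and -0.464, the lowest of the autosomes.

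Contacts between runs were taken for 792 pairs of runs of 5 or more bins. The median score was 1.47 in Grow, 1.21 in Grow-shA1, 1.79 in OIS and 1.45 in OIS-shA1, and it was above 0 for 792, 788, 791 and 789 pairs. OIS was above Grow in 626 of the 792 pairs (79.0%) and OIS-shA1 above Grow-shA1 in 587 (74.1%), against 70.3% and 65.8% of single members. OIS-shA1 was above OIS in 132 (16.7%), against 11.8% of single members. A run can enter many pairs, and chromosomes with more long runs give more pairs, so the pairs are not independent. The highest contacts in the Grow-shA1 map, with at most 1 pair of runs for each chromosome, were on chromosomes 15, 7 and 3. On chromosome 15 the run at chr15:93602517-94599675 with RGMA, which codes for an axon guidance protein, met the run at chr15:97799579-98800587 with ARRDC4 at 3.26 in Grow, 3.14 in Grow-shA1, 3.49 in OIS and 3.50 in OIS-shA1. On chromosome 7 the run at chr7:124799719-127001958 with GRM8, a glutamate receptor gene, met the run at chr7:144200404-146998570 with the start of CNTNAP2 across 17.2 Mb at 3.15, 2.99, 3.27 and 2.91. On chromosome 3 the run at chr3:400480-2597596 with CNTN6 and CNTN4 met the run at chr3:18600841-19599699 with KCNH8, a potassium channel gene, across 16.0 Mb at 3.12, 2.99, 3.27 and 2.60. The OIS-shA1 level was the lowest of the 4 in the pairs on chromosomes 7 and 3, and the highest in the pair on chromosome 15.

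The 10 longest genes that start in members span from 1478 to 2305 kb. The whole bodies of PCDH15 (10 of 10 bins), AGBL4 (9 of 9) and CCSER1 (8 of 8) lay in members, and of CNTNAP2 11 of 12 bins. Other long genes left the set part of the way along, with 6 of 12 bins of MACROD2, 6 of 11 of EYS, 5 of 11 of LRP1B, 6 of 10 of ROBO2 and 4 of 9 of NRXN3. In the bin where it starts, CNTNAP2 had a contact with other members of 1.71 in Grow, 1.502 in Grow-shA1, 1.86 in OIS and 1.47 in OIS-shA1. PCDH15, a protocadherin gene of sensory hair cells, had 1.40, 1.19, 1.54 and 1.27. EYS, a gene of photoreceptors, had 1.46, 1.13, 1.93 and 1.65, and CCSER1 had 1.32, 1.01, 1.73 and 1.42. NRXN3, a presynaptic adhesion gene, ran against these, with 1.75 in Grow, 1.80 in Grow-shA1, 1.19 in OIS and 1.17 in OIS-shA1. MACROD2 had 1.53, 1.46, 1.36 and 1.39. Thus 8 of the 10, all but NRXN3 and MACROD2, were higher in OIS than in Grow, as were 70.3% of all 2564 members. All 86 bins in which a gene of 500 kb or more starts gave 1.30, 1.13, 1.43 and 1.21, close to the 1.35, 1.17, 1.49 and 1.279 of all 2564 members.

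The families are given by the same measure, with no test between them. Of all 2564 members, OIS was above Grow in 70.3%, OIS-shA1 above Grow-shA1 in 65.8% and OIS-shA1 above OIS in 11.8%. These shares are the background for the counts of bins below. The 38 member bins with olfactory receptor genes had a contact with other members of 1.35 in Grow, 1.19 in Grow-shA1, 1.40 in OIS and 1.15 in OIS-shA1. OIS-shA1 was below OIS in all 38, and OIS-shA1 was above Grow-shA1 in 19. The bin at chr11:55999277-56197828, with 10 olfactory receptor genes such as OR5T2 and OR8H1, had 1.93, 1.69, 2.14 and 1.83. The 25 bins with zinc finger genes of chromosome 19 had 1.51, 1.43, 1.48 and 1.25, and OIS-shA1 was above Grow-shA1 in 1 of them. Their GC content was 42.3%. Pairs of any members of chromosome 19 came to 1.64, 1.53, 1.62 and 1.39, with RAS differences of -0.0237 and -0.146, where the zinc finger bins had -0.0339 and -0.174. The 3 bins with UDP-glucuronosyltransferase genes on chromosome 4, at a GC content of 35.4%, had 0.975, 0.599, 1.54 and 0.992, which is a RAS difference of 0.561 without and 0.393 with shA1. Pairs of any members of chromosome 4 had RAS differences of 0.457 and 0.455. The 5 bins with glutamate receptor genes had 1.39, 1.14, 1.64 and 1.36, and OIS was above Grow in all 5. The 7 bins with cadherin genes had 1.58, 1.39, 1.63 and 1.45, and 4 of them were higher in OIS than in Grow.

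Members with many genes were the exception. Only 55 members held 5 or more gene starts, and they had a GC content of 40.9%. Their contact with other members was 1.27 in Grow, 1.12 in Grow-shA1, 1.25 in OIS and 1.02 in OIS-shA1, while the 1994 members with no gene start had 1.38, 1.19, 1.54 and 1.32. The 2 protocadherin bins of chromosome 5 were among those with most genes. The bin at chr5:140400864-140601917 holds 14 starts (PCDHB1 to PCDHB13 and PCDHB16) and had 0.981, 0.877, 0.855 and 0.707. Its neighbour at chr5:140197662-140400863, with 12 starts that include PCDHA5 to PCDHA13, had 0.948, 0.842, 0.862 and 0.687. The bin at chr1:152599658-152800657 holds 13 starts, most of them LCE genes of the skin's cornified envelope, and had 0.600, 0.518, 0.665 and 0.380. The bin at chr1:12801845-13000864 holds 9, most of them PRAMEF genes, and had 0.920, 0.910, 0.709 and 0.7999.

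The members at the ends of the differences that do not contain the Grow map were these. For OIS-shA1 minus OIS the 3 highest were bins without protein-coding genes at chr21:26403732-26600406 (0.658), chr21:19998150-20198669 (0.559) and chr3:89600290-89800415 (0.511). The bin on chromosome 3 had 0.580 in Grow, 0.571 in Grow-shA1, 0.442 in OIS and 0.953 in OIS-shA1. The 3 lowest were chr8:51599357-51798441 overlapping SNTG1 (-0.763), chr2:165199106-165403106 overlapping GRB14 (-0.750) and chr6:49600181-49800974 with RHAG, CRISP2, CRISP3 and PGK2 (-0.710). The levels of the GRB14 bin were 1.06 in Grow, 0.689 in Grow-shA1, 1.70 in OIS and 0.954 in OIS-shA1, so OIS stood above the other 3 maps. The same was true of the SNTG1 bin, with 0.640, 0.225, 1.37 and 0.608. Both bins were chosen for a low OIS-shA1 minus OIS, which favours a high OIS level by the choice itself. For OIS-shA1 minus Grow-shA1 the 3 highest were bins of chromosome 13, likewise without protein-coding genes, at chr13:82805031-82997884 (1.01), chr13:90600975-90798294 (0.962) and chr13:84201780-84399859 (0.856). The 3 lowest were chr17:51203222-51399091 with no such gene (-0.970), chr16:61602363-61798795 overlapping CDH8, a cadherin gene (-0.881), and chr17:66601170-66801005 with no such gene (-0.842). The CDH8 bin had 1.91 in Grow, 1.93 in Grow-shA1, 1.18 in OIS and 1.05 in OIS-shA1.

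Membership itself was largely kept when the same rule was applied to the other maps. Of the 2564 members, 2225 (86.8%) were also among the lowest 20% in Grow-shA1, 2061 (80.4%) in OIS and 2145 (83.7%) in OIS-shA1, and 1753 (68.4%) in all 3. Both lists compared have 2564 bins, so each share holds for either. No member had a positive score, and none was among the strongest A bins, in any of the 3 maps. The lowest shares on an autosome were 74.9% in Grow-shA1, 57.4% in OIS and 60.3% in OIS-shA1. The 65 members that were in no other list had a GC content of 39.0% and a contact with other members of 0.947 in Grow, 0.790 in Grow-shA1, 0.922 in OIS and 0.773 in OIS-shA1. The 1753 members in all lists had a GC content of 37.4% and contacts of 1.47, 1.27, 1.67 and 1.43. The scores that split these groups come from the contacts of the same maps. Higher contact in the 1753 thus follows in part from the split.

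The members with the largest shift up the ranking of scores are named next, where a low percentile is strongest B. In Grow-shA1 they were the bins with KCNA3, overlapping NFIA and overlapping CDH12. The CDH12 bin at chr5:22199555-22399589 moved from the 15.3 to the 38.0 percentile of its chromosome, and lay at the 11.03 percentile in OIS and the 13.0 percentile in OIS-shA1. In OIS they were the bins overlapping PDE4B, overlapping LEPR and with RGS6. The PDE4B bin at chr1:66401708-66599581 moved from the 5.02 percentile in Grow to 42.0 in OIS and 29.5 in OIS-shA1. PDE4B codes for an enzyme that breaks down cAMP. The bin at chr1:65999489-66200312, overlapping the leptin receptor gene LEPR, moved from 7.92 to 41.3 and 33.4. In OIS-shA1 they were the bins overlapping CATSPERB, with DAPK1 and overlapping MCTP1. The CATSPERB bin at chr14:91998657-92199358 moved from the 19.5 percentile in Grow to 42.2 in OIS and 51.5 in OIS-shA1, and the DAPK1 bin at chr9:89998677-90198511, with the start of a gene for a kinase of cell death, from 14.7 to 41.3 and 43.8. In Grow-shA1 the CATSPERB and DAPK1 bins lay at 14.1 and 8.88.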

How the data were processed

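Hi-C of IMR90 cells was analysed in 4 maps. Per the labels and the study's methods, the authors digested chromatin with HindIII, aligned reads to hg19 with HiC-Pro, pooled the replicates of a condition, balanced the matrices and corrected them for distance. The deposited values are a score for each listed pair of bins of about 200 kb, and the files give neither its log base nor read counts. The ends of the bins equal the chromosome lengths of GRCh37. Genes were the protein-coding genes of GENCODE (v44 lifted to GRCh37), placed by their start of transcription.

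Scores, members and class means were computed as given in the report, in Python 3.11.15 with numpy 2.4.6 and pandas 2.3.3, and the steps were tested on simulated maps. Class means used pairs listed in all 4 maps. For its contact with members, a bin needed 10 such distal pairs, and 50% or more of its possible ones. The columns of the Grow and OIS maps belong to no sample of the series. The members, gene lists and alternatives were chosen with earlier results of these data known.

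Regions were named by rule. They were the 5 longest runs, the 3 members at each end of OIS-shA1 minus OIS and of OIS-shA1 minus Grow-shA1 (at most 1 for each run), the 5 with most genes, the 3 with the largest rise of rank in each other map, the 3 pairs of runs with the highest contact in Grow-shA1, and the 10 longest genes. Gene families were matched by symbol. A total of 13 alternatives was tried, which changed scale, centring, pairs, distance, share of bins, the map that gave the scores, the component, the listing minimum and the weight of chromosomes. Some of the genes and sequences that these rules pick are not reported here.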

Additional observations from a re-analysis of the deposited data

Results flagged for a closer look

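Some members had RAS differences of opposite sign without shA1 (OIS minus Grow) and with shA1 (OIS-shA1 minus Grow-shA1). Whether the 2 differ was not tested in any of these cases, since there was 1 map per condition. In the mutual distal contact of the members of a chromosome, this held for chromosome 10 (0.0292 without and -0.0358 with shA1), chromosome 15 (0.0269 and -0.147) and chromosome 21 (-0.298 and 0.229). Chromosome 21 had the fewest pairs of members of all autosomes, 398.

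Among the named bins, contact with other members changed by -0.710 without and 0.237 with shA1 at chr21:26403732-26600406, and by -0.328 and 0.431 at chr21:19998150-20198669. At chr3:89600290-89800415 the values were -0.138 and 0.382. These 3 bins were chosen for the highest OIS-shA1 minus OIS, which is part of this comparison, so their signs follow in part from the choice. Of all 2564 members, 399 (15.6%) had opposite signs, 141 of them lower without and higher with shA1. The bin with LCE genes on chromosome 1 had 0.0654 and -0.138, and the bin with KCNA3 had -0.00377 and 0.101. Among the named pairs of runs, those with GRM8 and CNTNAP2 on chromosome 7 had 0.118 without and -0.0806 with shA1, and those with CNTN4 and KCNH8 on chromosome 3 had 0.144 and -0.383. The pairs of runs were chosen for high contact in the Grow-shA1 map, which can lower OIS-shA1 minus Grow-shA1 by the choice itself.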

How the results depend on the processing

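Over the 13 alternatives, the difference in the members' mutual distal contact ran from -0.301 to -0.123 for Grow-shA1 minus Grow, from -0.256 to -0.147 for OIS-shA1 minus OIS and from 0.0416 to 0.256 for OIS-shA1 minus Grow-shA1, each with the sign it had at first. OIS minus Grow ran from -0.0267 to 0.277. With each map scaled by its SD at equal distance, the Grow level was 1.63, OIS minus Grow -0.0267 and the RAS difference with shA1 minus that without it 0.147, while in members the AT-richest group had -0.408 for Grow-shA1 minus Grow and 0.0617 for OIS minus Grow, and the GC-richest -0.367 for OIS minus Grow. With the maps centred on their shared pairs, the GC-richest group had 0.00968 for Grow-shA1 minus Grow. The cause was not tested. The alternatives for the GC groups were chosen after seeing the data. A component per chromosome arm picked 76.3% of the same members, and under the alternatives the share of members still among the lowest scores fell as far as 62.9% in OIS, 69.5% in OIS-shA1 and 71.6% in Grow-shA1. No paired analysis was possible because each shA1 map pools its 2 replicates. With no read counts and 1 map per condition, neither counting error nor replicate error is known.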
